A study of Mus musculus with 8 samples.

Results

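The Sp family of zinc finger transcription factors, Sp1 to Sp9, was followed in the back skin epidermis of newborn mice that had lost Eed. The members were every non-control probe of the array whose RefSeq accession named one of the 9 genes. They came to 11 probes for 9 genes, among 55681 probes for 36799 genes and other targets. Sp1 to Sp4, which are made in most tissues, were set against Sp5 to Sp9, which are made in restricted places during development. The family was selected with the Eed cKO against CTL contrast and the ratio to reference RNA already in view, so the members' values in that contrast are given as a description, without a test.

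RNA was compared between 4 Eed cKO and 4 CTL samples, labelled as biological replicates. The sample labels give C57BL/6 mice at postnatal day 0 for both groups. In Eed cKO mice (K14-Cre; EED flox/flox), Cre recombinase is driven by the promoter of keratin 14, which is active in basal keratinocytes and thereby in their descendants, and it deletes Eed, a subunit that the Polycomb complex PRC2 needs to methylate histone H3 at lysine 27. Cells of other origin in the peeled epidermis, such as melanocytes, immune cells and nerve endings, keep the gene, and the alleles carried by the CTL mice are not given in the sample labels. Each sample was hybridised on an Agilent 2-colour array with Universal Mouse Reference RNA, a commercial mixture that was the same on every array, with the sample in Cy3 on replicates 1 and 3 and in Cy5 on replicates 2 and 4 of both genotypes. Values below are log2 ratios of sample over reference after normalisation, or differences of these between the genotypes (log2 fold change, positive where Eed cKO was higher). A ratio to the reference is not a level, and the ratio of one probe is not comparable with that of another.

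Sp proteins bind GC-rich elements, the GC boxes and GT boxes of promoters, through 3 zinc fingers near the end of the protein, and they share this DNA-binding domain with the Klf factors. The widely made members maintain the transcription of many housekeeping genes. The developmental members act in narrow territories, among them the limb ridge, the teeth, bone and parts of the brain. Genes for such developmental regulators often have promoters rich in CpG dinucleotides, and these are typical places of PRC2 activity in cells where the genes are silent.

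Eed itself was lower on the Eed cKO arrays, with a log2 ratio of -1.80 ± 0.17 (SD, n = 4) against -0.35 ± 0.13 (SD, n = 4) and a log2 fold change of -1.46 (SE 0.09, limma adjusted p = 2.13e-05). Spots well above background made up 51.5% to 65.5% of each sample channel. The Eed cKO arrays lay in one row of a single slide and the CTL arrays in the other, so the slide row and the genotype cannot be told apart in the ratio itself. The mean log2 ratio of 4 Y-linked genes was 1.19 and 1.02 in CTL replicates 2 and 3 and between -1.51 and -1.31 on the other 6 arrays, so male RNA was present in 2 CTL samples and in no Eed cKO sample. With that mean as a covariate, an alternative chosen after seeing the data, 6 of 9 Sp genes were called, as without it. The tissue matched its label, since all 9 epidermal markers tested were well above background on every array, keratins 5, 14, 1 and 10 among them.

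All 9 Sp genes passed the filter, for which the sample spot had to be well above background on 3 or more of a genotype's 4 arrays. Sp8 and Sp9 passed it only through Eed cKO. At an adjusted p below 0.05 with any fold, 6 of 9 members were called, where 21.7% of the 23139 genes and targets tested were called. Of the 9, 4 were called lower (Sp1, Sp2, Sp3 and Sp5), against 9.93% of all tested, and 2 were called higher (Sp8 and Sp9), against 11.8%. At 2-fold or more 1 member was called, Sp8, against a background of 1.20%. The Eed cKO arrays lay wholly below the CTL arrays for Sp1, Sp3 and Sp5 (background 7.51%) and wholly above them for Sp8 and Sp9 (background 9.67%). Since the members were selected on this contrast, nothing is read from these shares. The RNA came from whole epidermis, so fewer cells of a type and less RNA per cell cannot be told apart for any of these genes.

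**Figure D1:**
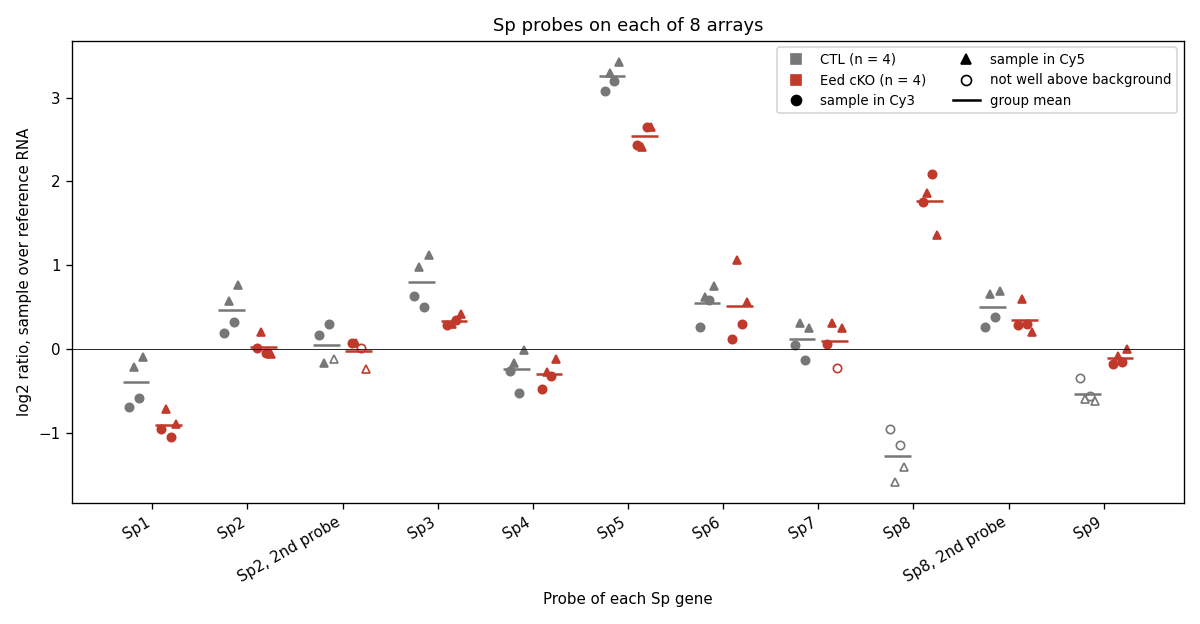
Log2 ratio of sample over reference RNA (vertical axis) of each Sp probe on each array, with 4 CTL arrays in grey and 4 Eed cKO arrays in red, the group mean as a line, circles for samples in Cy3 and triangles for Cy5, and open symbols where the spot was not well above background. Sp8 stands near 1.77 in Eed cKO and -1.27 in CTL on one probe, whereas its 2nd probe overlaps between the genotypes.

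Of the widely made members, Sp1, Sp2 and Sp3 were lower in Eed cKO epidermis and Sp4 differed little. The median log2 fold change of the group was -0.45, with all 4 members below 0, beside a median of 0.02 over all genes tested. Under the other settings of the processing the median of the group stayed between -0.59 and -0.36. In the group, 3 of 4 genes were called, each lower.

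Sp1, the founding member and an activator of many promoters without a TATA box, had log2 ratios of -0.95, -0.72, -1.05 and -0.90 on Eed cKO replicates 1 to 4 and of -0.69, -0.22, -0.58 and -0.10 on CTL replicates 1 to 4. Every Eed cKO array was below every CTL array, and the CTL arrays with the sample in Cy5 were the highest. The log2 fold change was -0.51 (SE 0.09), or 1.42-fold lower. In the 250 bases before the RefSeq start of Sp1, chr15:102406066-102406315 on the plus strand of GRCm38.p6, the GC box (GGGCGG, on either strand) occurred 4 times, and it stands in capitals in the sequence that follows. At least 1 GC box was present in 32.7% of 32851 such RefSeq windows and at least 3 in 8.47%. The window held 11 CpG dinucleotides, against a median of 6 over all windows. A match of letters is not a measured binding site, and no binding was measured here.
Sp1 promoter: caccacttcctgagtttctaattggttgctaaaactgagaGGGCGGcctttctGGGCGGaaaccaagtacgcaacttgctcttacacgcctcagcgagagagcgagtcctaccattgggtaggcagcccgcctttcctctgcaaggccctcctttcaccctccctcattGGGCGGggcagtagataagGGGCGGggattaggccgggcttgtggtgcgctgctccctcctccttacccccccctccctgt

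Sp3, which competes with Sp1 for GC boxes and can activate or repress, had log2 ratios of 0.29, 0.30, 0.35 and 0.42 in Eed cKO and of 0.63, 0.97, 0.50 and 1.12 in CTL. The groups did not overlap, and the Eed cKO values were closer together than the CTL values. The log2 fold change was -0.47 (SE 0.10). Sp3 was not called without the dye term, and neither was Sp2.

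Sp2, which early embryos need for growth, was represented by the brighter of its probes. That probe had log2 ratios of 0.01, 0.21, -0.05 and -0.06 in Eed cKO and of 0.19, 0.57, 0.32 and 0.77 in CTL, and its log2 fold change was -0.44 (SE 0.10). The highest Eed cKO array, replicate 2, lay above the lowest CTL array, replicate 1, and the other arrays did not cross. The dimmer probe of Sp2 gave a log2 fold change of -0.07 (SE 0.08) and was well above background on 2 Eed cKO and 3 CTL arrays. With the median over both probes Sp2 was at -0.25 and was not called.

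Sp4, a member most abundant in the nervous system, had log2 ratios of -0.47, -0.27, -0.32 and -0.11 in Eed cKO and of -0.26, -0.17, -0.53 and -0.01 in CTL. The lowest of the 8 values was a CTL array and the groups overlapped. The log2 fold change was -0.05, with a 95% interval of -0.25 to 0.14, and Sp4 was called in 0 of 25 other settings.

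The developmental members did not move as a group. Sp8 and Sp9 were higher in Eed cKO, Sp5 was lower, and Sp6 and Sp7 differed little. Their median log2 fold change was -0.02, over values from -0.72 to 3.04, with a range of -0.05 to 0.05 under other settings.

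Sp8, a regulator of limb bud outgrowth and of the developing forebrain, had the largest difference of the family. On its brighter probe the log2 ratios were 1.75, 1.87, 2.09 and 1.37 in Eed cKO and -0.96, -1.58, -1.14 and -1.40 in CTL. The lowest Eed cKO array stood well above the highest CTL array. In the scanner files the median intensity of the Sp8 spot in the sample channel was 298, 462, 361 and 209 on the Eed cKO arrays, over a local background of 20 to 26. On the CTL arrays the same spot read 33, 27, 43 and 25 over a local background of 21 to 23, and it was well above background on 0 of 4 of them.

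Because the CTL spots were not well above background, no measured fold can be given for Sp8. In the normalised sample channel the Eed cKO signal was 7.07-fold above a floor. The floor on each CTL array was the dimmest signal still well above background, or the Sp8 spot itself where that was brighter. The mean floor and the mean of the CTL spots were both 6.12 in log2. The floor was thus the Sp8 spot itself on every CTL array, and 7.07 is not a lower limit. The fitted log2 fold change was 3.04 (SE 0.12), which rests on CTL values at background. On this probe it ranged from 2.68 with median centring to 7.60 with the log ratio of the Feature Extraction software.

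The other Sp8 probe, annotated to the same accession, did not share this difference. Its log2 ratios were 0.29, 0.60, 0.29 and 0.20 in Eed cKO and 0.27, 0.66, 0.38 and 0.69 in CTL. These values overlapped, the log2 fold change was -0.16 (SE 0.09), and the probe was well above background on all 8 arrays. With the median over both probes the log2 fold change of Sp8 was 1.44. Which transcripts each probe can bind was not tested, so the Sp8 result rests on 1 of 2 probes.

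Sp9, the closest relative of Sp8, which acts with it in the limb ridge, was also higher in Eed cKO, but by less and at a dim spot. Its log2 ratios were -0.18, -0.08, -0.15 and -0.0014 in Eed cKO and -0.35, -0.60, -0.56 and -0.62 in CTL. The groups did not overlap as ratios, and the Sp9 spot was well above background on 4 of 4 Eed cKO arrays but 0 of 4 CTL arrays. The spot read 47, 48, 60 and 39.5 in Eed cKO and 40, 29, 48 and 26 in CTL, so the raw intensities overlapped between the genotypes, also within Cy3, where Eed cKO replicate 1 read 47 and CTL replicate 3 read 48. In the normalised sample channel the Eed cKO signal of Sp9 was 1.26-fold above the same kind of floor. That floor was again the CTL spot itself, at a mean log2 of 6.10, so 1.26 is not a lower limit. The fitted log2 fold change was 0.43 (SE 0.08). That value rests on CTL spots at background too, and over the other settings it ran from 0.34 for the sample channel alone to 2.99 with the deposited log2 table.

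**Figure D2:**
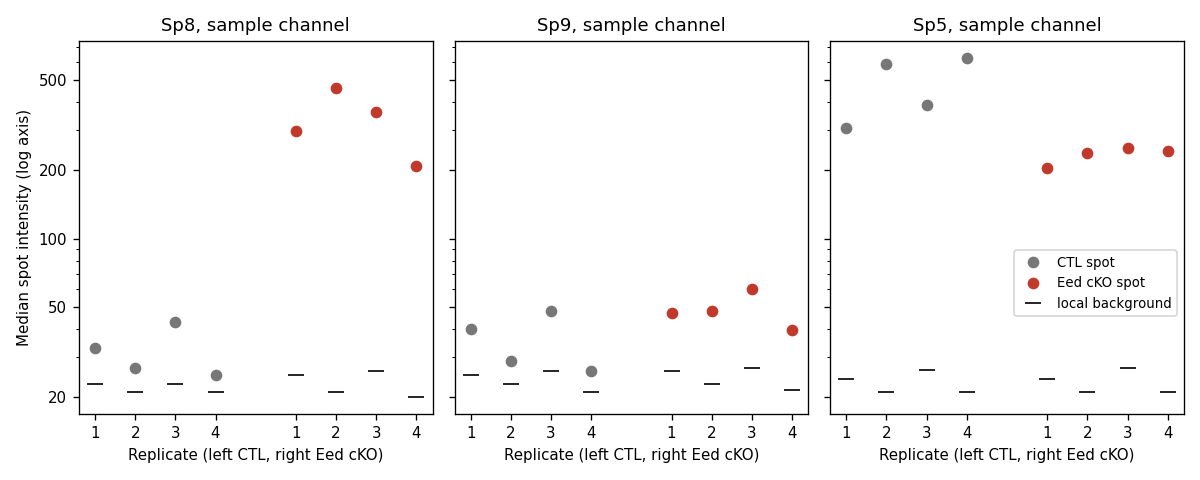
Median spot intensity in the sample channel (vertical log axis) of the Sp8, Sp9 and Sp5 probes on each array, with CTL replicates on the left in grey, Eed cKO replicates on the right in red and the local background as black dashes. Sp8 reads 25 to 43 on the CTL arrays and 209 to 462 on the Eed cKO arrays, while Sp5 is bright in both genotypes.

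The promoters of the pair are shown because Sp8 and Sp9 are the members that were higher. Of 3 Sp8 windows in RefSeq the one with the most CpG is given, chr12:118846983-118847232, and for Sp9 the single window, chr2:73271676-73271925, both on the plus strand of GRCm38.p6 and both the 250 bases before the start. Capitals mark the GC box and the core that TCF and LEF factors bind (CTTTG followed by AA, by AT, by TA or by TT, on either strand).
Sp8 promoter: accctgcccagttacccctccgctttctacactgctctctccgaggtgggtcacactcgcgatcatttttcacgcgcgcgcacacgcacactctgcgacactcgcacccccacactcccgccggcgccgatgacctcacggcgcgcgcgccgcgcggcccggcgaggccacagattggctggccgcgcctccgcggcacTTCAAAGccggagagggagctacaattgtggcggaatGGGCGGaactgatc
Sp9 promoter: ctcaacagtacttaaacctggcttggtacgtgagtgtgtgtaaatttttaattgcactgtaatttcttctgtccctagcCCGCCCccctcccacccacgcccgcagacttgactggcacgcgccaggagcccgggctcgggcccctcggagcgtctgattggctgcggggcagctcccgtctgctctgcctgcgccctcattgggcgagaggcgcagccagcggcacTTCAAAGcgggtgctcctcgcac

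The Sp8 window held 32 CpG and the Sp9 window 18. The Sp8 window was picked as the richest in CpG of its 3, of which the others held 1 and 6, so its count is not ranked against other genes. Among the widely made members, the window of Sp4 and the richer window of Sp3 held 37 CpG each, more than that of Sp8. The other Sp3 window held 28. The Sp8 and Sp9 windows shown each had 1 GC box and 1 TCF/LEF core, and at least 1 such core was present in 14.8% of all windows. In both, the core was read as TTCAAAG. It lay inside the longest run that the 2 windows share, GCGGCACTTCAAAGC, which is 15 bases long, begins 58 bases before the Sp8 start and 30 before the Sp9 start, and was found in no other window searched. The run was noticed after the values were seen, and its relation to the expression of either gene was not tested.

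Sp5, a direct target of Wnt/β-catenin signalling and itself a modulator of Wnt target genes, was the lowest of the family in Eed cKO against CTL. Its log2 ratios were 2.44, 2.41, 2.65 and 2.65 in Eed cKO and 3.08, 3.30, 3.20 and 3.43 in CTL. All 8 values were high against the reference RNA, and the groups did not overlap. The log2 fold change was -0.72 (SE 0.09), or 1.64-fold lower. With the Feature Extraction log ratio Sp5 was at -0.28 and was not called. Those ratios were 4.98, 4.96, 4.78 and 5.59 in Eed cKO and 5.38, 5.25, 5.49 and 5.32 in CTL, so the groups overlapped through Eed cKO replicate 4. The reference spot of Sp5 was dim, at a median intensity of 35.5 to 80, and the 2 sets of ratios differ in their background correction and dye normalisation. In the sample channel alone, taken after a normalisation that used both channels, Sp5 was at -0.81.

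The Sp5 promoter is shown for its TCF/LEF cores, which stand in capitals. The 250 bases before the start, chr2:70474673-70474922 on the plus strand of GRCm38.p6, held 2 of them, a count that 1.43% of windows reached. The distal core began 222 bases and the proximal one 104 bases before the start. The window held no GC box and 6 CpG.
Sp5 promoter: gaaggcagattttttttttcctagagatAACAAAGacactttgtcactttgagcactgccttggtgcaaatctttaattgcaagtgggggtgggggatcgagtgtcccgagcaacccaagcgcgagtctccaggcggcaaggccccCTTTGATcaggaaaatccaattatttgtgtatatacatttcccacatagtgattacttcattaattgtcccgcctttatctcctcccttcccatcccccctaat

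Sp6, also called epiprofin, is made in hair placodes, tooth epithelium and limb ectoderm. Its log2 ratios were 0.12, 1.06, 0.30 and 0.56 in Eed cKO and 0.26, 0.62, 0.58 and 0.76 in CTL. Both the highest and the lowest of the 8 values were Eed cKO arrays, and the highest was replicate 2. The log2 fold change was -0.05 with a 95% interval of -0.34 to 0.25, the widest of the 11 probes.

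Sp7, or osterix, the factor that commits cells to the osteoblast lineage, had log2 ratios of 0.06, 0.31, -0.23 and 0.25 in Eed cKO and 0.05, 0.31, -0.13 and 0.25 in CTL. The 2 sets of values nearly coincided replicate by replicate, a number that also marks the dye. The log2 fold change was -0.02 with a 95% interval of -0.21 to 0.16. The Sp7 spot was dim, at a median intensity of 43.5 to 58 over a local background of 22 to 26. It was well above background on 3 Eed cKO and 4 CTL arrays. The background correction draws ratios of such spots toward 0. With the Feature Extraction log ratio the value was -0.05 with a wider SE of 0.27. Sp6 and Sp7 were called in 0 of 25 other settings, and the sign was kept in 21 of them for Sp6 and in 23 for Sp7. Several of these settings cannot change the estimate.

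**Figure D3:**
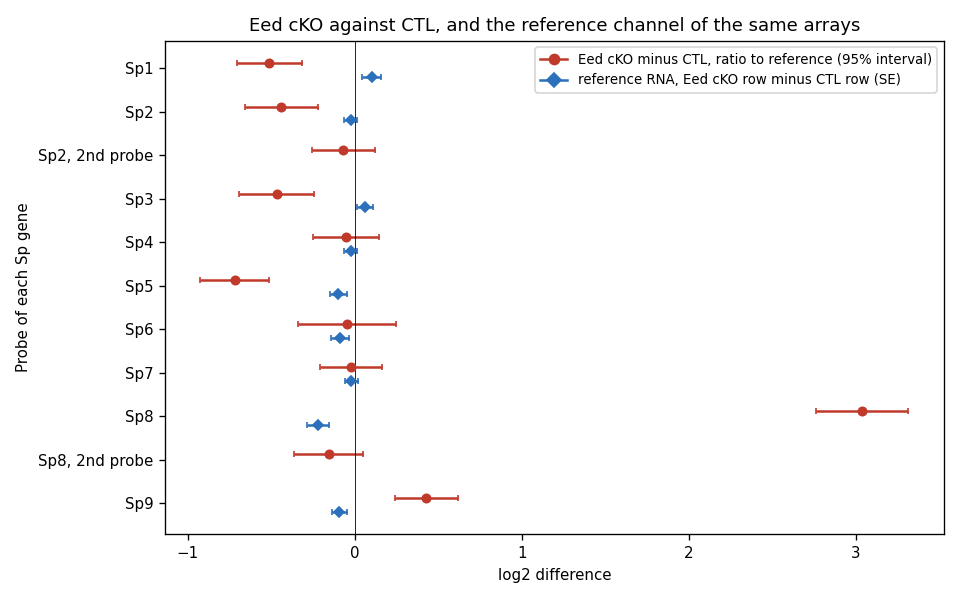
Log2 difference (horizontal axis) of each Sp probe between Eed cKO and CTL as a ratio to reference (red circles, 95% interval of the fit), and of the same probes in the reference channel between the slide rows of the Eed cKO and CTL arrays (blue diamonds, SE, probe that represents the gene only). The reference channel differences lie between -0.22 and 0.10.

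Every array carried the same reference RNA, so its channel was compared between the 2 rows of the slide. Both channels entered the normalisation, so a difference of the samples can reach the reference channel too, and its part was not tested. There 0 of 9 members were called by limma, against a background of 0.506%, and 1 of 9 had an unadjusted p below 0.05 (2012 of 23139 over all targets). That member was Sp8, at -0.22 (SE 0.07, limma adjusted p = 0.354). In the sample channel alone Sp8 differed by 2.82 and Sp1 by -0.41, and all 6 members called from the ratio were also called there. The sample channel carries the values on which the members were selected, so these calls are not a separate measure. The part of RNA handling before labelling was not tested.

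The dye was a second measure that the choice of members did not use. With the sample in Cy5 rather than Cy3, the ratio of 3 of 9 members differed, with a background of 19.1%. The log2 difference was 0.34 for Sp1 (SE 0.09, limma adjusted p = 0.0264), 0.44 for Sp6 (SE 0.13, limma adjusted p = 0.0441) and 0.34 for Sp7 (SE 0.08, limma adjusted p = 0.0211). Each genotype held both dyes equally, so this difference cancels in the genotype comparison and widens its error only where the dye term is left out.

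Several Sp genes are neighbours on the chromosome in pairs of 1 widely made and 1 developmental member. The members of a pair had different values on the probes that represented them. By RefSeq, Sp1 lies next to Sp7 on chromosome 15, Sp2 next to Sp6 on chromosome 11 and Sp4 next to Sp8 on chromosome 12, with no protein-coding gene between them, and on chromosome 2 Ola1 separates Sp3 from Sp9. Sp1 had a log2 fold change of -0.51 beside -0.02 for Sp7, and Sp2 had -0.44 beside -0.05 for Sp6. Sp4 had -0.05 beside Sp8, which was at 3.04 on its brighter probe and at -0.16 on the other. Sp3 had -0.47 beside Sp9, which was at 0.43. The 3.04 of Sp8 and the 0.43 of Sp9 rest on CTL spots at background. Ola1 was at 0.09 (SE 0.07, limma adjusted p = 0.420). On the other side of Sp8, Abcb5 was at 0.30 (SE 0.08, limma adjusted p = 0.0218), and beside Sp3, Cdca7 was at -0.36 (SE 0.07, limma adjusted p = 0.00760). Next to Sp5, Erich2 was at 0.28 (SE 0.09, limma adjusted p = 0.0446) and Myo3b at 0.09 (limma adjusted p = 0.367). Abcb5 was called in 14 and Erich2 in 12 of 25 other settings, not all of which gave them a value. Over the settings Abcb5 ran from 0.24 to 2.21 and Erich2 from 0.21 to 2.12. The outer neighbours Amhr2, Scrn2, Aaas, Dnah11 and Cir1 were not called, with log2 fold changes from -0.08 to 0.32.

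The Klf factors, which share the zinc fingers of the Sp proteins, gave 4 genes called lower and 1 called higher among 16 tested, with a median log2 fold change of -0.17 beside 0.02 over all genes tested. Over all targets tested 9.93% were called lower and 11.8% higher. Klf4, a driver of barrier formation in the epidermis, was at -0.70 (SE 0.14, limma adjusted p = 0.00746), and Klf5, a factor of proliferating epithelia, at -0.55 (SE 0.12, limma adjusted p = 0.0128). Klf13 (-0.44, limma adjusted p = 0.0341) and Klf9 (-0.28, limma adjusted p = 0.0319) were each called in 11 of 25 other settings. Klf6, the one called higher, was at 0.34 (limma adjusted p = 0.0454) and was called in 8 of 25.

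Sp5 was read beside 18 other targets of Wnt/β-catenin signalling, of which 8 were called lower (background 9.93%) and 2 higher (background 11.8%), with a median of -0.29. Axin2, a feedback inhibitor of the pathway, was at -0.84 (SE 0.11, limma adjusted p = 0.00118), Tnfrsf19 at -0.79 (SE 0.14, limma adjusted p = 0.00431) and Lef1, a nuclear effector, at -0.76 (SE 0.13, limma adjusted p = 0.00439). The secreted inhibitor Wif1 was called higher, at 0.90 (SE 0.20, limma adjusted p = 0.0135). Rnf43, Dkk4, Myc, Ascl2 and Apcdd1 were also called lower, between -0.67 and -0.34, and Notum, another secreted inhibitor, was called higher at 0.57. Under the Feature Extraction log ratio 5 of the 18 were called lower and 1 higher, and Dkk4 and Wif1 were among those no longer called.

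Sp8 and Sp9 were read beside 13 tested genes of the limb apical ectodermal ridge, where both act. The ridge signal Fgf8 was at -0.07 and was not called (limma adjusted p = 0.530). Wnt3 (-0.74, limma adjusted p = 0.00734), the Wnt co-receptor gene Lrp6 (-0.57, limma adjusted p = 0.00414) and the Notch ligand gene Jag2 (-0.53, limma adjusted p = 0.00947) were called lower, as was Bmp2 (-0.49, limma adjusted p = 0.0191), whose sign turned with the Feature Extraction log ratio. Wnt3 was not called with that log ratio, with the deposited table or with the methods' t-test after adjustment, and its value reached -0.25 over the other settings. Bmp4 was called higher, at 0.58 (limma adjusted p = 0.00142). The list median was -0.16. The list thus gave 4 genes called lower (background 9.93%) and 1 higher (background 11.8%), and 2 lower and 1 higher with the Feature Extraction log ratio.

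For Sp7, 9 osteoblast genes were tested, with 2 called higher, 1 called lower and a median of 0.09, where 21.7% of all targets tested were called in either direction. Bglap2 was at 0.64 (limma adjusted p = 0.00240), Spp1 at 0.36 (limma adjusted p = 0.0436, called in 9 of 25 other settings) and Sparc at -0.47 (limma adjusted p = 0.0109). The genes for type I collagen, Col1a1 and Col1a2, were not called. For Sp6, 10 genes of tooth enamel were listed, and 6 of them, the matrix genes Amelx, Ambn and Enam included, did not pass the filter. The 4 tested were Klk4, Fst, Rock1 and Tbx1, of which Fst, Rock1 and Tbx1 also act in many other tissues. Tbx1 was called higher (0.97, limma adjusted p = 0.0437, called in 13 of 25 other settings) and Rock1 lower (-0.39, limma adjusted p = 0.0210), and the median of the 4 was 0.05.

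**Figure D4:**
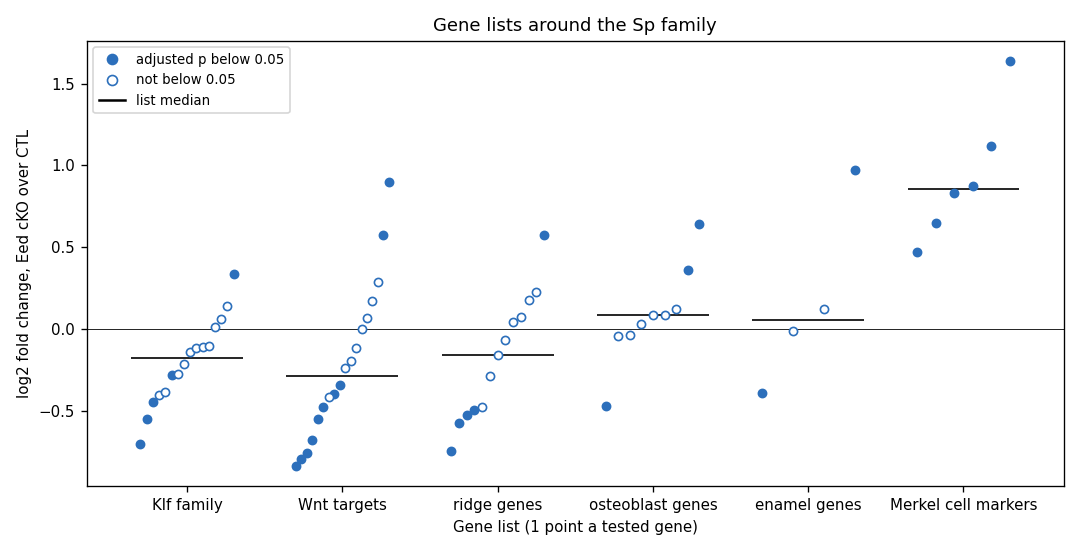
Log2 fold change of Eed cKO over CTL (vertical axis) for each tested gene of 6 lists, filled where the adjusted p was below 0.05, with the list median as a line. The Wnt target list has a median of -0.29 and the Merkel cell markers 0.85.

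Markers of other cell types that the peeled epidermis can hold differed between the genotypes in some lists. All 6 Merkel cell markers tested were called higher in Eed cKO (background 11.8%), with a median of 0.85. The brightest, Krt18 and Krt8, were at 0.47 (limma adjusted p = 0.00377) and 0.65 (limma adjusted p = 0.000668). Cck was at 1.64 (limma adjusted p = 0.00181) and Krt20 at 1.12 (limma adjusted p = 6.87e-05), and the spots of Atoh1 and of Isl1 passed the background on 2 of 4 CTL arrays and on every Eed cKO array. The mean log2 signal of that list was 8.09 to 8.29 in Eed cKO and 7.14 to 7.44 in CTL. Of 3 endothelial markers Kdr (0.62) and Pecam1 (0.89) were called higher and Cldn5 (0.08) was not, with a median of 0.62. Of 5 immune cell markers Cd3e (0.54) and Cd74 (0.46) were called higher, and the brightest, Itgam (-0.02), was not, with a median of 0.36. Of 6 dermal fibroblast markers the dim Lum (0.50) and Fbn1 (0.30) were called higher, whereas the brightest, Dcn (-0.21) and Col3a1 (-0.18), were not called, with a median of 0.14. The background of 11.8% also stands beside the higher calls of the endothelial, immune and fibroblast lists. No marker of skeletal muscle (3 tested, median -0.13, Acta1, Mylpf and Myh8) was called. The same held for melanocytes (6 tested, median 0.18, Dct, Pmel and Mlana the brightest). It also held for neurons and Schwann cells (5 tested, median -0.01, Mbp and Snap25 among them). Of 9 epidermal markers Col17a1 and Itgb4 were called lower (background 9.93%), with a median of 0.10. Over the settings 0 to 3 epidermal markers were called lower. The part of all these cell types in the differences of Sp8, Sp9 and the other members was not tested.

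The genes whose pattern over the 8 arrays was most like that of each member, after the mean of each dye was taken out, had Pearson correlations of 0.966 to 0.998. For Sp8 they were Adig (r = 0.998) and Hoxb13 (r = 0.997), with log2 fold changes of 1.37 and 4.10. For Sp9 they were Hspa12b and Hid1, and for Sp5 Smc4 and Cstf2. Sp1 was most like Tmem39b and Cacng6, Sp2 like Sf3a3 and Ddx10, and Sp3 like Tfdp1 and Trim59. Those of the 3 members that were not called were Raly and Atad2 for Sp4, Olfr1395 and Lad1 for Sp6, and Mospd4 and Fam20b for Sp7. These are descriptions over 8 arrays that share a slide and fall into 2 genotypes, and each gene named is the best of all named genes tested.

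**Figure D5:**
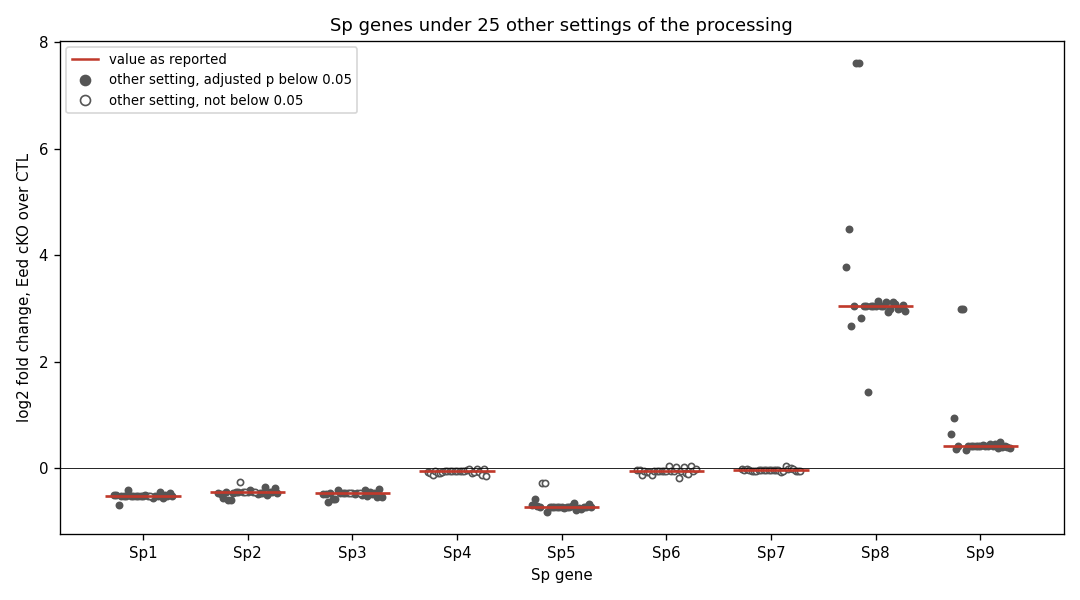
Log2 fold change of each Sp gene (vertical axis) under 25 other settings of the processing (points, filled where the adjusted p was below 0.05) and as reported (red line). Sp8 spreads from 1.44 to 7.60 and Sp9 from 0.34 to 2.99, while Sp1, Sp2 and Sp3 stay between -0.69 and -0.25.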

How the data were processed

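The authors scanned the arrays with Agilent Feature Extraction 12.0.1.1 and deposited for each array the spot and background intensity of both channels, with a log10 ratio of Cy5 over Cy3. Their deposited log2 table matched the log2 ratio of sample over reference of the processed signals within 1e-04 for 100% of 55249 probes with 1 spot. No centring had been applied to it. The median spot intensity, not normalised by the authors, was used here.

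Background was corrected by normexp (offset 50), which draws ratios of dim spots toward 0, and arrays were normalised by loess, with control and flagged spots at weight 0. Spots of a probe were averaged, and the probe of highest mean intensity represented a gene. Accessions were matched to RefSeq (GRCm38.p6 table, 28026 of 29796), which also gave the promoter windows, present for 7 of 9 members. The genotype comparison was run with limma 3.58.1 under R 4.3.3 (genotype plus dye, Benjamini-Hochberg over 23139 targets), with 19 missing values filled by the group mean, none in an Sp probe. The fit was tested on simulated data. The number of arrays limits the precision.

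The members and the gene lists were chosen with earlier results of these data known. Of each pathway list up to 4 called genes of largest change were to be named, of each marker list up to 3 of highest signal, for each Sp gene the 2 most correlated genes and both neighbours. One neighbouring gene and one marker are not reported here. Klf9, Bmp2, Fgf8, the further Wnt targets, the untested enamel genes, Krt20, Atoh1, Isl1, Fbn1, Col17a1 and Itgb4 were named after their values were seen. The alternatives were no background correction, normexp offset 10, median centring, Aquantile, the Feature Extraction log ratio, the deposited table, the sample channel alone, 2 other filters, 2 other probe rules, no dye term, array weights, the replicate block, the methods' t-test, a trend of the variance with intensity, each array left out, and, added after seeing the data, the Y-linked covariate.

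The deviations of same-numbered samples from their group means correlated across genes at 0.49, 0.68, 0.33 and 0.36, and at 0.13 and 0.46 for differences between arrays of the same dye. What the number means is not given in the sources used here, and it also marks the dye.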

Additional observations from a re-analysis of the deposited data

How the results depend on the processing

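Sp1, Sp2, Sp3, Sp5, Sp8 and Sp9 kept their direction in all 25 other settings. Aquantile, the 2 other filters, no dye term, the replicate block, the variance trend and the methods' t-test left each estimate unchanged. In those settings the direction was fixed in advance. The deposited table gave nearly the same values as the Feature Extraction log ratio. Of the 25 settings, Sp1 was called in 24, Sp3 and Sp5 in 23 and Sp2 in 22. With the methods' t-test and Benjamini-Hochberg adjustment 3 members were called rather than 6, and Sp1, Sp2 and Sp3 were the ones lost. The number of genes called at any fold was 5025 as reported, 2554 with median centring, 2358 without the dye term, 913 with the methods' t-test after Benjamini-Hochberg adjustment and 2805 with the Y-linked covariate, chosen after seeing the data. With 1 array left out it was 2722 (without CTL replicate 2) to 5062, with 3343 without Eed cKO replicate 3 and 2947 without Eed cKO replicate 4, and in each of these fits 6 members were called. At 2-fold or more it was 278 as reported, 499 with normexp offset 10, 699 with the Feature Extraction log ratio, 698 with the deposited table and 175 with the methods' t-test after adjustment, or 275 at an unadjusted p. The replicate block gave 5984 genes and 6 members and changed no call of a member. Without 1 array the log2 fold change of Sp8 was 2.93 to 3.13, that of Sp5 -0.78 to -0.65 and that of Sp9 0.39 to 0.50. Of the lists, the Klf, Wnt target and ridge medians stayed below 0 and the Merkel and osteoblast medians above 0 in every setting, while the lower calls ranged from 0 to 5 in the Klf list, from 0 to 9 in the Wnt target list and from 1 to 5 in the ridge list, and the higher calls in the Wnt target list from 0 to 2. The methods' t-test after adjustment called 0 Wnt targets. The CTL spots of Sp8 and Sp9 were not well above background, so their fitted sizes are no measured folds. The causes of the shifts between settings, that of Sp5 included, were not tested.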
